A study of Mus musculus with 40 samples.

Results

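The enzymes described here make serine from a glycolytic intermediate and carry its one-carbon units on folate. They are 9 genes: Phgdh, Psat1 and Psph of serine synthesis, Shmt1 and Shmt2, the folate enzymes Mthfd1, Mthfd2 and Mthfd1l, and Tyms. Each was chosen by its symbol among probe sets annotated to exactly 1 gene, and the probe set with the highest mean over all arrays stood for the gene. Of 18193 genes with such a probe set, 14916 passed a filter on low values and were tested, and 8 of the 9 enzymes were among them. Tyms did not pass.

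Poly(A) RNA of B6D2 mouse embryos was hybridized to 39 Affymetrix arrays in 10 groups. The 2-cell groups were somatic cell nuclear transfer (SCNT) embryos with α-amanitin, fertilized embryos with α-amanitin, SCNT embryos, parthenogenetic embryos and fertilized embryos, and the 1-cell groups were the same 5. Each group held 4 arrays, except that 1 of the 4 columns of the untreated 1-cell SCNT embryos is empty, which left 3. The SCNT nuclei came from cumulus cells, the somatic cells around the oocyte. α-Amanitin inhibits RNA polymerase II, so an RNA that needs new transcription is lower with it, and a stored maternal RNA can persist. An A before the replicate number was taken to mean α-amanitin: among the 8 SCNT samples with this letter, 7 name the inhibitor, while the fertilized ones rest on the letter and the design text alone. Where a culture medium is named it is MEMα in SCNT samples and KSOM in a fertilized sample, so origin and medium cannot be told apart. Nothing in the labels states whether replicates are separate cultures or animals. The p-values therefore measure only the spread between these samples, which may be technical, and the number of arrays limits the precision. In such bulk samples fewer cells and less RNA per cell cannot be told apart.

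Levels are log2 of the deposited intensity plus 6.9, quantile normalized, and differences are on that scale with their standard error (SE). A change was called where limma's p-value, adjusted by the Benjamini-Hochberg method over the 14916 genes, was under 0.05. The overall median level was 5.34 (intensity 33.6). Differences from a group under that median depend partly on the constant, so they hold on this scale only. The files used here carry no detection calls.

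Serine is made in the cytosol in 3 steps: PHGDH oxidizes 3-phosphoglycerate, PSAT1 transfers an amino group to the product, and PSPH removes the phosphate. SHMT1 in the cytosol and SHMT2 in mitochondria split serine into glycine and a one-carbon unit on tetrahydrofolate. MTHFD2 and MTHFD1L carry that unit to formate in mitochondria, MTHFD1 takes formate back onto folate in the cytosol, and TYMS uses it to make thymidylate for DNA. The mouse embryo begins on RNA stored in the oocyte, and its first large wave of transcription comes at the 2-cell stage.

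The results below turn most on the serine synthesis enzymes, so the windows around their annotated starts are printed here. They run from 250 bases before to 50 bases after the start, are taken from RefSeq (build GRCm38.p6) and read in the direction of the gene. Windows of all 9 genes were found, 10 in all because Psat1 has 2. The windows of Psat1 lie on the minus strand at chr19:15925010-15925309 and chr19:15924573-15924872, that of Phgdh on the minus strand at chr3:98339920-98340219, and that of Psph on the minus strand at chr5:129787204-129787503. Capitals mark CCAAT, or ATTGG where it lies on the other strand.

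Psat1, first start: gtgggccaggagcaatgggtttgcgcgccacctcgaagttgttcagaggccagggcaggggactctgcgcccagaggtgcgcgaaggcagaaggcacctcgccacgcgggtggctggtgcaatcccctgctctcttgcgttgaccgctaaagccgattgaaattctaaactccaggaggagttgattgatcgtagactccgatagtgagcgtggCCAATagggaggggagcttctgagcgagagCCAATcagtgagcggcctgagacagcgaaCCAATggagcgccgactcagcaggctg

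Psat1, other start: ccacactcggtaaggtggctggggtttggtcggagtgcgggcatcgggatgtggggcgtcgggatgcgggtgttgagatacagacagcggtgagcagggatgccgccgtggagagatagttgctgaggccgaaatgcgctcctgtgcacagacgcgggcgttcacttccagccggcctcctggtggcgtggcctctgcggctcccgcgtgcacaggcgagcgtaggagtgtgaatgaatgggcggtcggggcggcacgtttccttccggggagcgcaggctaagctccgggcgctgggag

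Phgdh: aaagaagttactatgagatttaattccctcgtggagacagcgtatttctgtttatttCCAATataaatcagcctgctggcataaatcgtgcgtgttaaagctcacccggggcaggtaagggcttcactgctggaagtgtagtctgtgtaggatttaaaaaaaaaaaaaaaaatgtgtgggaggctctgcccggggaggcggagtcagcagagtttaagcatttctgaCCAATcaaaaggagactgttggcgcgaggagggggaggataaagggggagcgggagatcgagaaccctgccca

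Psph: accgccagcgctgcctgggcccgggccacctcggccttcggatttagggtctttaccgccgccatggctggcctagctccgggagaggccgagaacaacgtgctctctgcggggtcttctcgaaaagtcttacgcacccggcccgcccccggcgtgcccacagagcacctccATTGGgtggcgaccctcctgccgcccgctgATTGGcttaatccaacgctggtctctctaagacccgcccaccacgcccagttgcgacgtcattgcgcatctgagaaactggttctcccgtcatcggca

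Both strands were searched for 3 motifs, none of which contains another, chosen with the levels known. CCAAT was in 6 of the 10 windows, those of Psat1, Phgdh, Psph, Mthfd2, Shmt1 and Mthfd1, against 37.4% of 32851 mouse windows of the same length. CACGTG, the E-box, was in 1 of the 10 (Tyms), against 7.15% of all windows. TGATGNAA, the core of the element bound by ATF4 with a C/EBP partner, was in 0 of the 10, against 3.97% of all windows. The windows of Psat1 differ: the first holds CCAAT 3 times, and the other does not hold it.

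**Figure D1:**
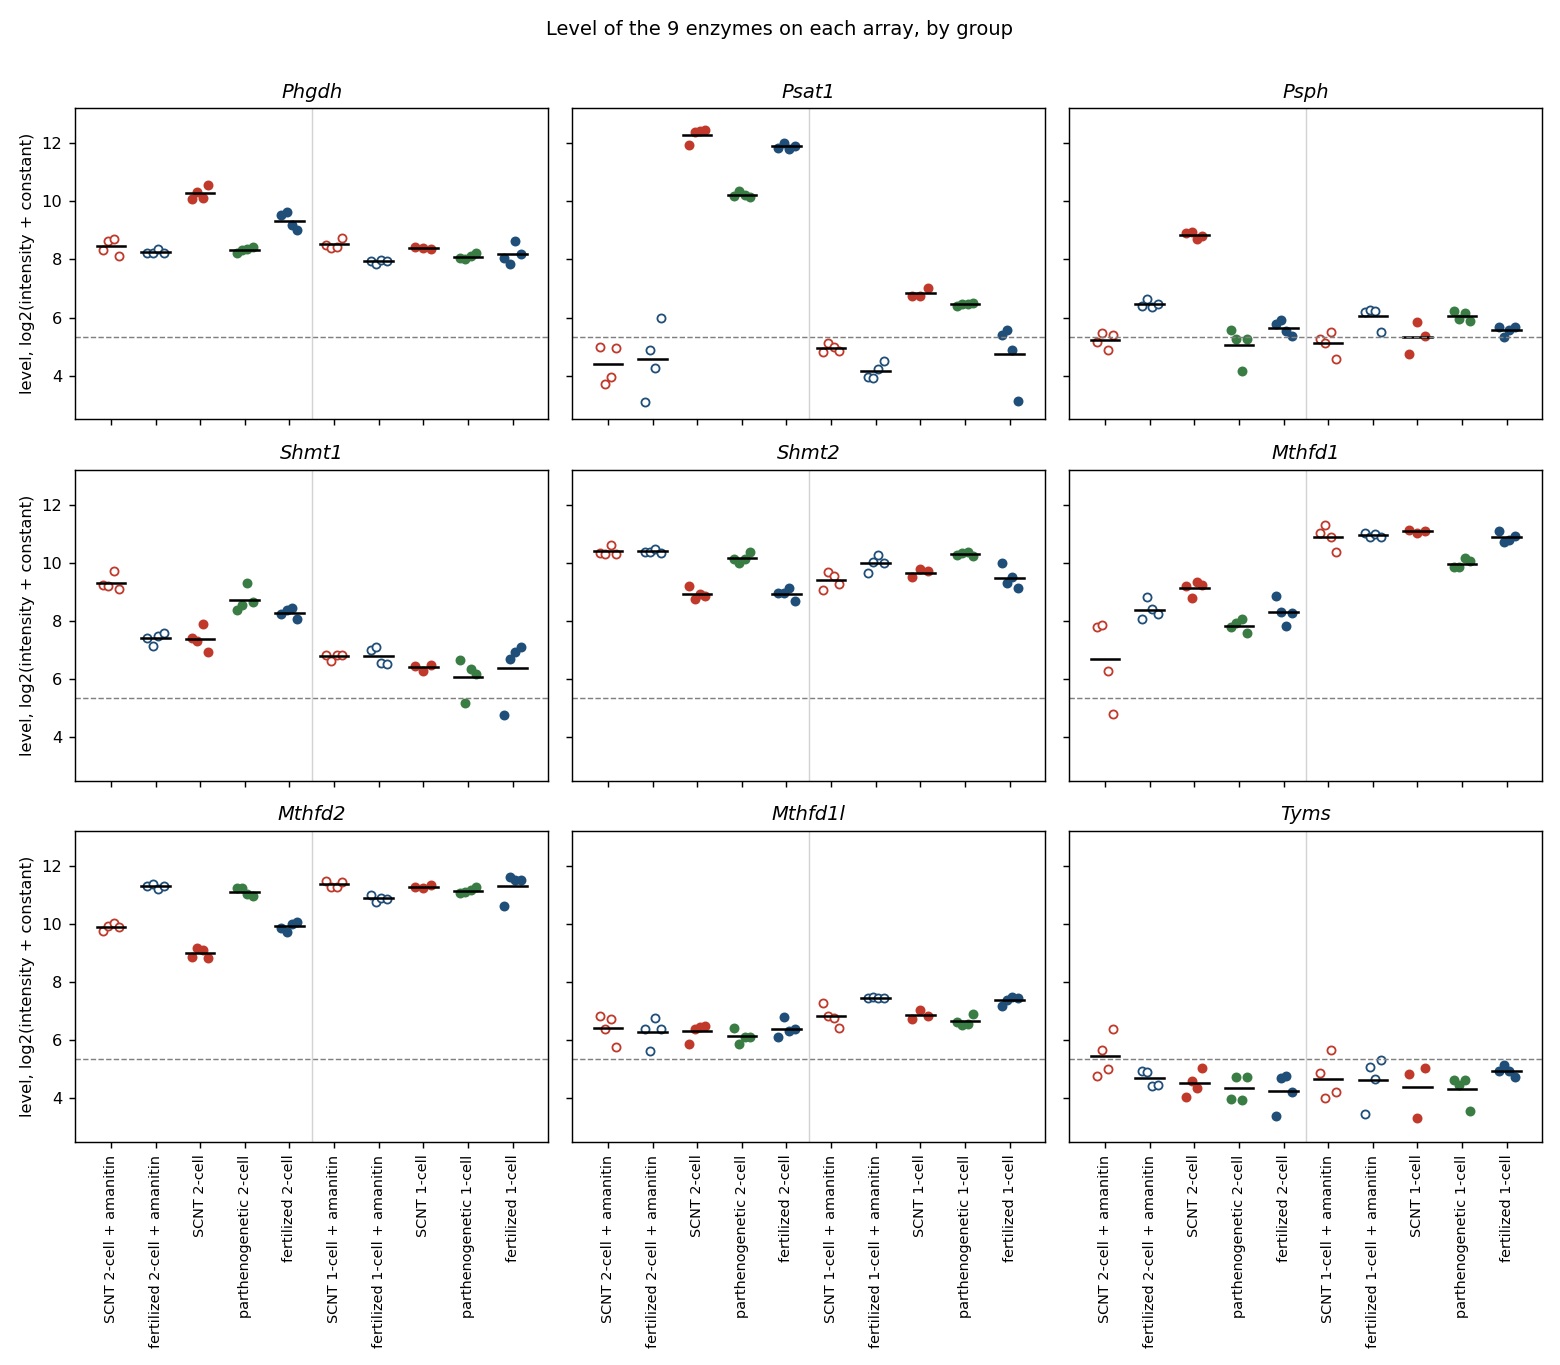
Level of each enzyme on every array, as log2(intensity + constant), in the 10 groups, 2-cell groups on the left and 1-cell groups on the right of each panel. Circles are arrays (open with α-amanitin), black bars group means, and the dashed line the overall median of 5.34. Psat1 stands between 10.14 and 12.44 on the untreated 2-cell arrays of all 3 origins, Psph stands high in SCNT 2-cell embryos, and Tyms lies above the median on 3 of 39 arrays.

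Psat1, the aminotransferase of the second step, showed the widest range of the 9 enzymes. Its intensity was 27.4, 7.5, 11.5 and 33.1 on the SCNT 2-cell arrays with α-amanitin, against 3217, 4277, 4787 and 4418 without it. In fertilized 2-cell embryos it was 1.8, 25.5, 12.8 and 58.3 with α-amanitin, against 3461, 3761, 3339 and 3440 without it. The groups did not overlap in either origin, and 7 of the 8 inhibited arrays lay under the overall median, the exception being fertilized replicate 4. The log2 difference was -7.89 (SE 0.38, adjusted p = 3.45e-21) in SCNT and -7.33 (SE 0.38, adjusted p = 4.4e-20) in fertilized embryos. Among the genes tested, 0.0268% had a lower value than that in SCNT embryos and 0.0805% in fertilized embryos. The difference between both effects was -0.56 (95% interval -1.64 to 0.52, adjusted p = 0.444).

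Psat1 was already different among 1-cell embryos. Intensities were 101.2, 99 and 122.5 in SCNT, 64, 66.7, 72.5 and 73.5 in parthenogenetic, and 34.2, 38.1, 22.1 and 1.7 in fertilized 1-cell embryos. Both groups without sperm lay above every fertilized array. The level was 2.09 higher in SCNT (SE 0.41, adjusted p = 0.000878) and 1.70 higher in parthenogenetic embryos (SE 0.38, adjusted p = 0.000795) than in fertilized ones. The fertilized mean of 4.75 lies under the overall median and its SD was 1.12 (n = 4). The 2 comparisons share the fertilized arrays. Fitted on the compared arrays alone, the SCNT difference had an adjusted p of 0.0517. With α-amanitin, Psat1 was at 19.2, 25.5, 20.8 and 21.3 in 1-cell SCNT embryos, under all 3 untreated arrays, a log2 difference of -1.90 (SE 0.41, adjusted p = 0.0156). That call was lost when SCNT amanitin replicate 1 was left out (-1.86, adjusted p = 0.0531) and without any 1 of the SCNT replicates 1, 3 and 4, where the adjusted p lay between 0.0602 and 0.132. In fertilized 1-cell embryos the corresponding difference was -0.59 (95% interval -1.35 to 0.17, adjusted p = 0.41), and without fertilized replicate 4 it was -1.13 (adjusted p = 0.0462). The interaction between origin and α-amanitin at the 1-cell stage was -1.31 (SE 0.55, adjusted p = 0.227). The other Psat1 probe set was called lower with α-amanitin in fertilized 1-cell embryos, at -1.263, and in SCNT 1-cell embryos, at -2.434. It was also called higher than in fertilized 1-cell embryos in SCNT ones, at 2.755, and in parthenogenetic ones, at 2.159.

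The rise of Psat1 between the stages differed with origin. The log2 change was 5.45 (SE 0.41) in SCNT, 3.77 (SE 0.38) in parthenogenetic and 7.14 (SE 0.38) in fertilized embryos, all called. The log2 change in SCNT embryos was smaller by 1.69 than in fertilized ones (interaction -1.69, SE 0.55, adjusted p = 0.0261). That call was lost without SCNT 1-cell replicate 4, SCNT 2-cell replicate 1 or fertilized 1-cell replicate 4 (-1.15, adjusted p = 0.0944). It was also lost with the constant at the 5th percentile (-2.10, adjusted p = 0.0572). In parthenogenetic embryos the log2 change was smaller by 3.36 (interaction -3.36, SE 0.53, adjusted p = 2.38e-06). Both interactions rest on the fertilized 1-cell mean, which lies under the overall median, so their size depends partly on the constant. Mean intensity rose from 107.6 to 4175 in SCNT and from 24.02 to 3500 in fertilized embryos. At the 2-cell stage Psat1 reached 1165, 1254, 1132 and 1052 in parthenogenetic embryos, under every SCNT and fertilized array. The difference from fertilized embryos was -1.66 (SE 0.38, adjusted p = 0.000278). SCNT and fertilized 2-cell embryos differed by 0.40 (95% interval -0.36 to 1.16, adjusted p = 0.487). With α-amanitin the change between the stages was -0.54 (95% interval -1.31 to 0.22) in SCNT and 0.40 (95% interval -0.36 to 1.16) in fertilized embryos, neither called. The other Psat1 probe set gave the same calls in the 2-cell amanitin effects, the stage changes without α-amanitin and the 2-cell comparisons of origin. Its stage change under α-amanitin was -1.13 in SCNT and 1.74 in fertilized embryos, both called, and the mean of both probe sets gave -0.84 (adjusted p = 0.0127) and 1.07 (adjusted p = 0.00276).

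Phgdh, the first enzyme of the route, was also lower with α-amanitin at the 2-cell stage, over a smaller range. It also rose between the stages in SCNT and fertilized embryos, but not all its comparisons of origin matched those of Psat1. The interaction of stage with SCNT origin was 0.73 for Phgdh, against -1.69 for Psat1, and both calls were lost under some alternatives. Intensities in SCNT 2-cell embryos were 280.9, 351.6, 361.4 and 245.9 with α-amanitin, against 964.3, 1131, 1033 and 1338 without it. In fertilized 2-cell embryos they were 266.6, 265.4, 297.1 and 272.5 with α-amanitin, against 710, 784.5, 592.3 and 512.2 without it. No inhibited array reached an untreated one. The log2 differences were -1.82 (SE 0.14, adjusted p = 8.34e-15) and -1.08 (SE 0.14, adjusted p = 1.05e-08), and the effect in SCNT embryos was the larger by 0.74 (interaction -0.74, SE 0.20, adjusted p = 0.00245). Between the stages Phgdh rose by 1.88 in SCNT (SE 0.15) and 1.15 in fertilized embryos (SE 0.14). On the chosen probe set it changed by 0.23 in parthenogenetic ones (95% interval -0.06 to 0.51, adjusted p = 0.19), and other probe sets gave lower values, as given below. The parthenogenetic change was lower than the fertilized one by 0.93 (interaction -0.93, SE 0.20, adjusted p = 0.000245). At the 2-cell stage SCNT embryos stood 0.93 above fertilized ones (SE 0.14, adjusted p = 1.28e-06), and parthenogenetic embryos 1.01 below them (difference -1.01, SE 0.14, adjusted p = 9.19e-08). The 7 groups from 8.10 to 8.52 overlapped from one to the next, in the order amanitin-treated SCNT 1-cell and 2-cell, SCNT 1-cell, parthenogenetic 2-cell, amanitin-treated fertilized 2-cell, fertilized 1-cell and parthenogenetic 1-cell.

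Phgdh has 3 further probe sets, and they showed wider changes with the same signs in both 2-cell amanitin effects. These were -5.18 to -3.21 in SCNT and -3.00 to -1.73 in fertilized embryos. In the stage change of parthenogenetic embryos they gave -1.09 to -0.56, where the chosen probe set gave 0.23. Of the 3, 1 was not called there and the others were called lower. The mean of probe sets was also called lower there, at -0.54 (adjusted p = 0.0224). All 4 bear a suffix that marks possible cross-hybridization. Of 2 probe sets shared with the predicted genes Gm8096 and Gm6756, both fell with α-amanitin at the 2-cell stage, by 4.52 and 3.61 on the log2 scale in SCNT embryos and by 2.87 and 3.11 in fertilized ones. In the parthenogenetic stage change both were called lower, at -1.50 (adjusted p = 1.8e-05) and -0.74 (adjusted p = 0.0422).

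Psph, the phosphatase of the last step, was high in 1 group of the 10. Its intensity was 481.4, 499.6, 422.8 and 462 in SCNT 2-cell embryos, against 53.3, 54.5, 40.5 and 36.2 in fertilized 2-cell embryos. Parthenogenetic 2-cell embryos had 43.4, 36.9, 14.2 and 41. Every SCNT array was above every array of the other 9 groups, whose highest intensity was 93.8 in fertilized 2-cell embryos with α-amanitin. The SCNT level was 3.21 above the fertilized one (SE 0.24, adjusted p = 2.07e-13) and 3.79 above the parthenogenetic one (SE 0.24, adjusted p = 1.73e-16). Among all genes tested, 99.9% had a smaller SCNT minus fertilized difference at that stage. Psph rose by 3.52 between the stages in SCNT embryos (SE 0.26), against 0.07 in fertilized ones (95% interval -0.42 to 0.57), and the interaction was 3.45 (SE 0.36, adjusted p = 2.87e-09).

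With α-amanitin Psph fell to 32.5, 44.2, 31.4 and 49 in SCNT 2-cell embryos, a difference of -3.62 (SE 0.24, adjusted p = 1.67e-16). In fertilized 2-cell embryos it was at 74.6, 93.8, 74.6 and 81.5 with α-amanitin, above all 4 untreated arrays, a difference of 0.82 (SE 0.24, adjusted p = 0.00352). The effects differed by -4.43 (SE 0.35, adjusted p = 2.05e-13). Psph has 1 probe set, and 6 of its 10 group means lay above the overall median. In parthenogenetic embryos the stage change was -0.98 (SE 0.24, adjusted p = 0.000833), and -0.53 (adjusted p = 0.0599) with the values as deposited. Their 2-cell difference from fertilized embryos of -0.58 (SE 0.24, adjusted p = 0.0485) became -0.28 (adjusted p = 0.357) without parthenogenetic replicate 3, and its call was also lost without fertilized replicate 1, 2 or 3.

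**Figure D2:**
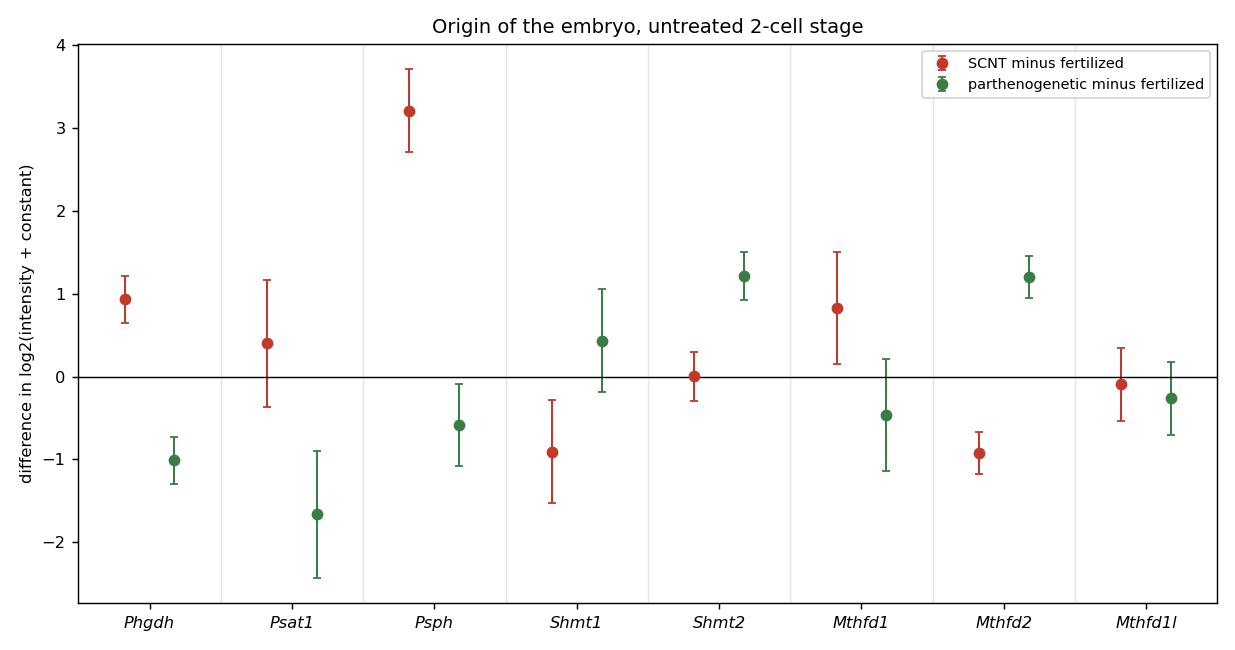
Difference in log2(intensity + constant) from fertilized embryos at the untreated 2-cell stage for the 8 enzymes tested, SCNT in red and parthenogenetic in green, with 95% intervals from limma (4 arrays a group). Psph stands at 3.21 in SCNT embryos. Phgdh is above 0 in SCNT and below it in parthenogenetic embryos, and Mthfd2 the reverse.

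Shmt2 and Mthfd2, which both act in mitochondria, went the other way: they stood well above the overall median in 1-cell embryos and were higher with α-amanitin at the 2-cell stage. Mthfd1l, the third mitochondrial member, did not share this and is given below. Shmt2 intensity in SCNT 2-cell embryos was 1325, 1252, 1509 and 1204 with α-amanitin, against 568.2, 438.3, 489.6 and 465.4 without it. In fertilized 2-cell embryos it was 1401, 1358, 1471 and 1333 with α-amanitin, against 495.3, 496.8, 561.9 and 405.5 without it. Treated and untreated arrays were far apart in both origins. The log2 differences were 1.45 (SE 0.14, adjusted p = 8.26e-12) and 1.46 (SE 0.14, adjusted p = 9.78e-12), and their difference was -0.01 (95% interval -0.41 to 0.41). The SCNT values of Shmt2 and Mthfd2 rest on amanitin arrays whose spiked-in controls stood apart from the other groups, as given below. Over all genes tested the median difference with α-amanitin was 0.28 in SCNT and 0.27 in fertilized 2-cell embryos.

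Without α-amanitin Shmt2 fell between the stages by 0.72 in SCNT (log2 -0.72, SE 0.15) and by 0.55 in fertilized embryos (log2 -0.55, SE 0.14), and it changed by -0.16 in parthenogenetic ones (95% interval -0.45 to 0.13). That last change was called lower with median centring (-0.78, adjusted p = 1.23e-05), with the mean of probe sets (-0.53, adjusted p = 0.00728) and with the values as deposited (-0.32, adjusted p = 0.045). With α-amanitin it rose by 1.00 in SCNT (SE 0.14, adjusted p = 1.11e-07). The rise of 0.41 in fertilized embryos with α-amanitin (SE 0.14, adjusted p = 0.0185) was -0.09 (adjusted p = 0.668) with median centring in place of quantile normalization. At the 2-cell stage parthenogenetic embryos had 1098, 965.4, 1066 and 1219, above every untreated SCNT and fertilized array, and 1.21 above fertilized embryos (SE 0.14, adjusted p = 2.76e-09). They were also 0.82 above them at the 1-cell stage (SE 0.14, adjusted p = 3.61e-05). SCNT and fertilized 2-cell embryos differed by 0.00 (95% interval -0.29 to 0.29, adjusted p = 0.997). The chosen Shmt2 probe set bears the same cross-hybridization suffix as those of Phgdh, and its mean is 9.76, against 6.09 to 6.93 for its others. Of the 3 other Shmt2 probe sets, 3 shared the amanitin call in SCNT and 2 in fertilized 2-cell embryos, and 1 each the stage changes in SCNT and fertilized embryos. Between parthenogenetic and fertilized embryos 1 of the 3 shared the call at each stage, and at the 2-cell stage they ranged from -0.18 to 0.70, with 0.55 for the mean of probe sets.

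Mthfd2 had intensities of 836.1, 918.6, 964.7 and 875.1 in SCNT 2-cell embryos with α-amanitin, against 471.3, 566.9, 546.3 and 465.5 without it. Fertilized 2-cell embryos had 2895, 2849, 2581 and 2757 with α-amanitin, against 911.9, 841.5, 986.3 and 1051 without it. The treated arrays were above the untreated ones in both origins, by 0.91 (SE 0.13, adjusted p = 2.94e-08) in SCNT and 1.39 (SE 0.13, adjusted p = 9.79e-13) in fertilized embryos. The other Mthfd2 probe set gave 2.034 and 2.496. The 2 effects differed by -0.48 (SE 0.18, adjusted p = 0.0288), a call lost without any 1 of 5 arrays: fertilized amanitin replicate 2, SCNT amanitin replicate 1, SCNT replicates 2 and 3, and fertilized replicate 2, with the adjusted p between 0.0515 and 0.0692.

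Between the stages Mthfd2 fell by 2.29 in SCNT embryos (log2 -2.29, SE 0.14, adjusted p = 4.81e-18) and in fertilized ones, where the change was -1.395 (SE 0.13, adjusted p = 1.08e-12). Its change in parthenogenetic embryos was -0.04 (95% interval -0.29 to 0.22, adjusted p = 0.84), but -0.65 (adjusted p = 0.00015) with median centring, under which the median of all genes in that comparison is -0.26 in place of -0.04. Parthenogenetic 2-cell embryos kept 2384, 2269, 1977 and 1784, above every untreated SCNT and fertilized array, and the interaction with origin was 1.36 (SE 0.18, adjusted p = 6.7e-08). SCNT 2-cell embryos lay 0.92 under fertilized ones (log2 -0.92, SE 0.13, adjusted p = 2.01e-07). With α-amanitin the stage change was -1.47 in SCNT (SE 0.13) and 0.43 in fertilized embryos (SE 0.13, adjusted p = 0.00534). The fertilized value was 0.06 (adjusted p = 0.789) with median centring. Mthfd2 in fertilized 1-cell embryos was 1558 on replicate 1 and 2795 to 3192 on the other 3 arrays.

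Mthfd1, the cytosolic enzyme that interconverts the folate one-carbon forms, had intensities of 559.1, 443.4, 634.9 and 597.8 in SCNT 2-cell embryos, against 2201, 2093 and 2135 in SCNT 1-cell embryos. Fertilized embryos had 446.5, 305.6, 226 and 305.7 at the 2-cell stage, against 2105, 1664, 1762 and 1885 at the 1-cell stage. Every 2-cell array lay below the 1-cell arrays of its origin. The level fell by 1.95 in SCNT (SE 0.36), by 2.13 in parthenogenetic (SE 0.33) and by 2.57 in fertilized embryos (SE 0.33). The fall in fertilized embryos was as large with α-amanitin (log2 -2.57, SE 0.33, adjusted p = 4.16e-08), and α-amanitin made a difference of 0.07 there at the 2-cell stage (95% interval -0.60 to 0.75). Both other Mthfd1 probe sets were also lower at the 2-cell stage in all 3 origins, and in fertilized 2-cell embryos they were 0.59 and 0.79 higher with α-amanitin.

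In SCNT embryos Mthfd1 went lower still with α-amanitin. The 4 arrays had 194.4, 206.1, 88.4 and 28.4 at the 2-cell stage, a difference of -2.45 (SE 0.33, adjusted p = 2.19e-08) from untreated SCNT embryos. The effect differed from the fertilized one by -2.53 (SE 0.47, adjusted p = 2.88e-05). These 4 arrays spread widely, with an SD of 1.46 on the log2 scale, and their spiked-in controls stood apart from the other groups, as given below. The Mthfd1 fall between the stages under α-amanitin was 4.21 in SCNT embryos (log2 -4.21, SE 0.33). Among 1-cell embryos Mthfd1 was lower by 0.90 in parthenogenetic than in fertilized ones (log2 -0.90, SE 0.33, adjusted p = 0.049), a call lost on leaving out any 1 of the 8 arrays.

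**Figure D3:**
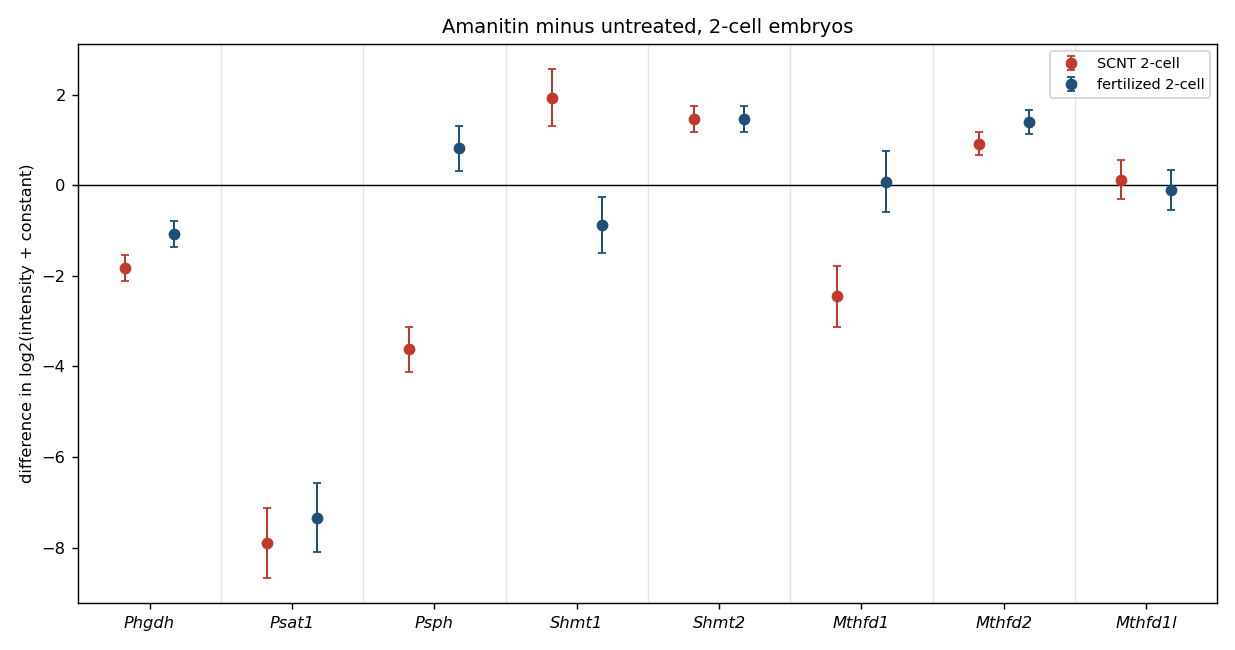
Difference in log2(intensity + constant) between 2-cell embryos with α-amanitin and without it, SCNT in red and fertilized in blue, with 95% intervals from limma (4 arrays a group). Psat1 lies at -7.89 and -7.33, Shmt2 and Mthfd2 lie above 0 in both origins, and Psph, Shmt1 and Mthfd1 differ between the origins.

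Mthfd1l, the mitochondrial synthetase that releases formate, stayed within a narrow range. Its level was 7.38 ± 0.14 in fertilized 1-cell embryos (SD, n = 4), above 6.65 ± 0.17 in parthenogenetic (SD, n = 4) and 6.87 ± 0.16 in SCNT 1-cell embryos (SD, n = 3). The parthenogenetic difference of -0.73 was called (SE 0.22, adjusted p = 0.013) and the SCNT one of -0.51 was not (SE 0.23, adjusted p = 0.246). Between the stages it fell by 0.57 in SCNT (SE 0.23, adjusted p = 0.0351), by 0.52 in parthenogenetic (SE 0.22, adjusted p = 0.0463) and by 0.98 in fertilized embryos (SE 0.22, adjusted p = 0.000144). The first 2 calls were lost on leaving out single arrays, and with the values as deposited they were -0.32 (adjusted p = 0.196) and -0.16 (adjusted p = 0.497). At the 2-cell stage α-amanitin made a difference of 0.12 in SCNT (95% interval -0.32 to 0.56) and -0.11 in fertilized embryos (95% interval -0.55 to 0.33). It has 1 probe set.

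For Shmt1, the cytosolic enzyme, the 4 probe sets did not give 1 answer. The first 2 by mean log2 level are the one that stands for the gene (mean 7.37) and a close second (mean 7.35), and the third (mean 6.35) has the highest mean intensity. In SCNT 2-cell embryos with α-amanitin the chosen probe set had intensities of 534.9, 531, 768.8 and 471.7, against 188.3, 173.2, 249.9 and 131.2 without it. The chosen and the second probe set were higher by 1.93 (SE 0.31, adjusted p = 5.6e-07) and 2.16, while the third and the fourth were lower, at -5.05 and -2.58, all called. In fertilized 2-cell embryos all 4 were lower, at -0.88, -1.15, -6.98 and -4.51. On the third probe set the SCNT level was 4.95 with α-amanitin, 5.05 under the untreated level (log2 -5.05), and on the chosen one it was 9.31 with α-amanitin, against 7.38 without it.

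Some Shmt1 results were shared by the probe sets. All 4 rose between the stages in fertilized embryos, by 1.92, 1.57, 7.15 and 4.69 in the same order, and in parthenogenetic ones, by 0.77 to 4.75. In SCNT embryos 3 rose, and the second probe set fell (log2 -0.58, SE 0.20). All 4 were lower in SCNT than in fertilized 2-cell embryos, with differences of -2.55 to -0.91. On the chosen one that call (adjusted p = 0.0211) was lost without SCNT replicate 4 (-0.76, adjusted p = 0.0863), without fertilized replicate 3, and with the values as deposited (-0.74, adjusted p = 0.0687). Between parthenogenetic and fertilized embryos the sign turned: the chosen probe set gave 0.43 (adjusted p = 0.272) and the third -1.01 at the 2-cell stage. Which transcripts each probe set reads was not tested.

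**Figure D4:**
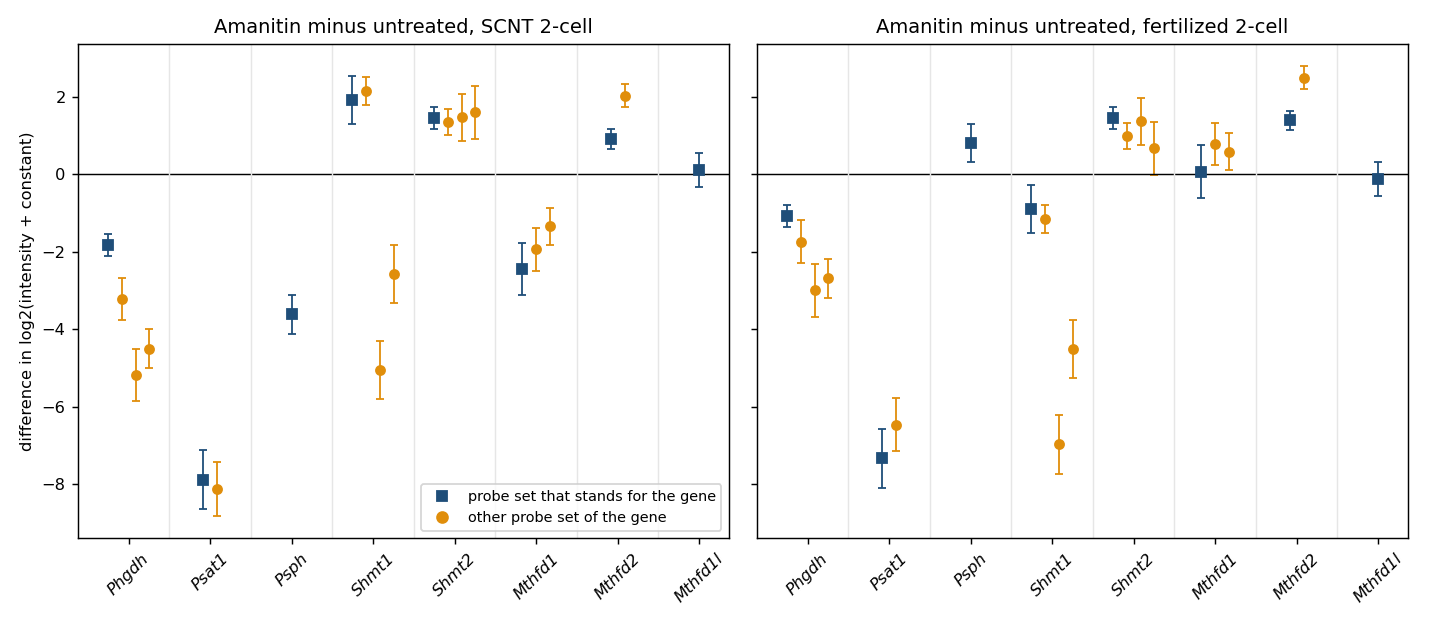
Difference in log2(intensity + constant) between 2-cell embryos with α-amanitin and without it for each probe set of the 8 enzymes tested, in SCNT (left) and fertilized embryos (right), with 95% intervals from limma (4 arrays a group). Blue squares stand for the gene and orange circles are its other probe sets. Those of Shmt1 lie on both sides of 0 in SCNT embryos, and those of Phgdh lie from -5.18 to -1.82.

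Tyms, which makes thymidylate, had 1 of its 10 group means above the overall median. Its chosen probe set passed the median on 3 of 39 arrays, and the other 3 on none. The highest group mean was in SCNT 2-cell embryos with α-amanitin, at 5.45 ± 0.72 (SD, n = 4), from intensities of 21.9, 50.8, 35.6 and 93.3, against 13.3, 21.7, 15.6 and 30.1 without it. A further probe set, shared by Tyms and its pseudogene Tyms-ps, did pass. It was lower with α-amanitin at the 2-cell stage, at -2.02 in SCNT (adjusted p = 2.87e-11) and -3.20 in fertilized embryos (adjusted p = 9.38e-17), and it rose between the stages by 1.43 in SCNT, 0.79 in parthenogenetic and 1.45 in fertilized embryos. It cannot be assigned to 1 of the 2 genes.

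The counts of called enzymes stand here beside the share of all genes called in the same direction. The members were picked by name. Psat1 lay above the overall median on 22 and Psph on 29 of 39 arrays, those of their high groups among them, where the filter asks for 4. With α-amanitin at the 2-cell stage, 3 of 8 were higher in SCNT embryos (background 39.6%) and 4 lower (29.7%), and in fertilized embryos 3 were higher (38.6%) and 3 lower (25.8%). At the 1-cell stage, 0 of 8 were higher in SCNT embryos by limma (0.0805%), also 0 at an unadjusted p under 0.05, and 1 was lower (0.349%), namely Psat1. In fertilized 1-cell embryos 1 was higher (3.59%), Shmt2 by 0.49 (adjusted p = 0.0306), and 1 lower (2.45%), Mthfd2 by -0.43 (adjusted p = 0.0318). Both calls were lost without any 1 of fertilized amanitin replicates 2, 3 and 4 and fertilized replicates 2, 3 and 4. Median differences over the 8 were -0.85 in SCNT and -0.02 in fertilized 2-cell embryos, against 0.28 and 0.27 over all genes.

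Between the stages, 4 of 8 rose in SCNT embryos (background 26.3%) and 4 fell (34.4%). In parthenogenetic embryos 2 rose (21.7%) and 3 fell (27.4%), and in fertilized embryos 3 rose (25.8%) and 4 fell (34.2%). Under α-amanitin 2 rose (25.6%) and 2 fell (29.8%) in SCNT embryos, and 2 rose (21.5%) and 2 fell (19%) in fertilized ones. With 8 enzymes, 2 of 8 is a share close to most of these backgrounds, and the counts alone are no result about the enzymes.

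**Figure D5:**
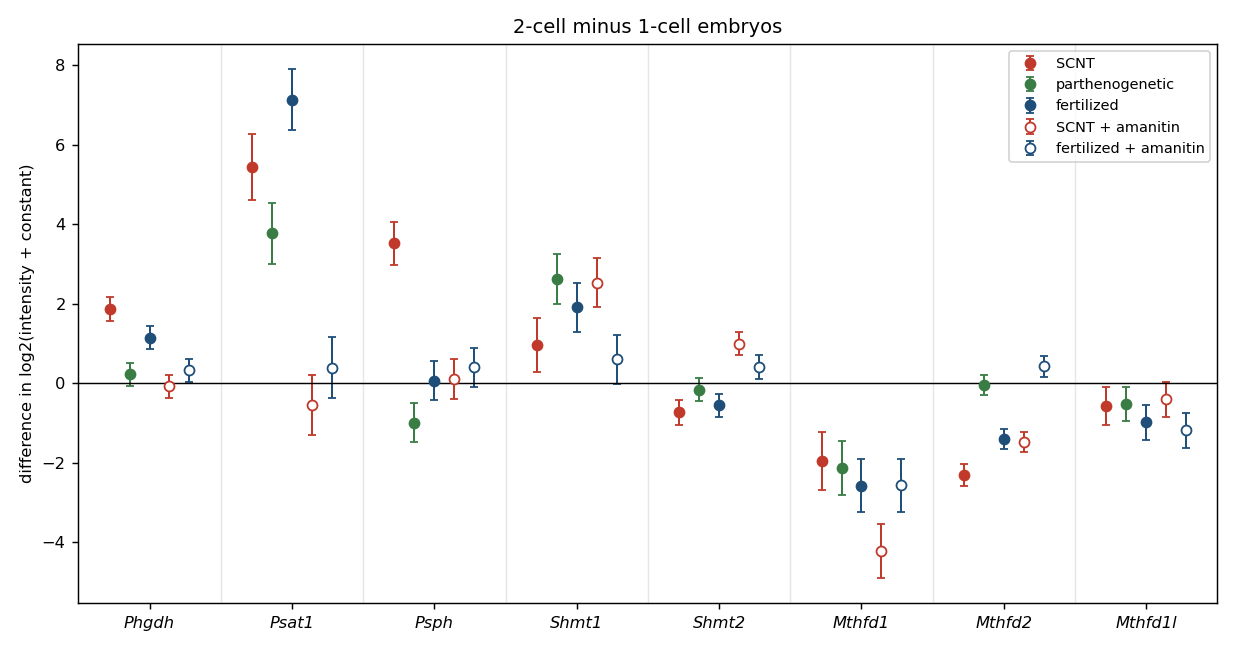
Change in log2(intensity + constant) between the stages, 2-cell minus 1-cell, for the 8 enzymes tested, with 95% intervals from limma (4 arrays a group, 3 for untreated SCNT 1-cell embryos). Filled circles are untreated SCNT, parthenogenetic and fertilized embryos and open circles those with α-amanitin. Psat1 rises by 5.45, 3.77 and 7.14 without α-amanitin, and Mthfd1 lies under 0 in all 5 cases.

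By origin at the 2-cell stage, 2 of 8 were higher in SCNT than in fertilized embryos (background 14.3%) and 2 lower (16.3%). Between parthenogenetic and fertilized embryos 2 were higher (26.4%) and 3 lower (21%), and between SCNT and parthenogenetic embryos 4 were higher (24.4%) and 3 lower (30.1%). These 3 comparisons share arrays in pairs. At the 1-cell stage, 1 was higher in SCNT than in fertilized embryos (2.87%) and 0 lower by limma (2.69%), with 1 lower at an unadjusted p under 0.05. Between parthenogenetic and fertilized 1-cell embryos 2 were higher (10.9%) and 2 lower (9.52%), and between SCNT and parthenogenetic ones 1 was higher (7%) and 1 lower (7.19%). Under α-amanitin, 2 were higher in SCNT than in fertilized 1-cell embryos (10.1%) and 3 lower (11.4%), and at the 2-cell stage 1 was higher (18.6%) and 3 lower (24.6%). The interaction between origin and α-amanitin was called for 1 of 8 at the 1-cell stage (2.41%) and 5 at the 2-cell stage (38.9%). The interaction between stage and origin was called for 4 with SCNT (19%) and 4 with parthenogenetic embryos (35.4%).

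Levels in the controls and marker genes moved with some of these groups, and their part in the results was not tested. The 18S rRNA control was 9.47 to 11.54 on the untreated 2-cell arrays and 12.50 to 13.58 on all others. Spiked-in poly(A) controls were 10.16 to 10.69 in SCNT 2-cell embryos with α-amanitin, against 8.26 to 9.31 without it, and hybridization controls were 10.95 to 11.44, against 9.61 to 10.73 on all other arrays. Every result above for SCNT 2-cell embryos with α-amanitin rests on the arrays with these high controls. In fertilized 2-cell embryos the poly(A) controls were 7.41 to 7.82 with α-amanitin and 7.08 to 8.56 without it. In SCNT 1-cell embryos the poly(A) controls were 3.45 to 4.10 with α-amanitin and 3.54 to 3.79 without it. In the other 1-cell groups they were 6.11 to 8.17. Every stage change in SCNT embryos, and every 1-cell comparison of SCNT with another origin, rests on the arrays with these low controls. Of 10 oocyte markers, 9 or 10 lay above the overall median in each group. Their summed intensity was 17110 to 18000 in SCNT and 18010 to 20370 in fertilized 2-cell embryos with α-amanitin, 4711 to 5261 in SCNT, 10590 to 12320 in parthenogenetic and 5572 to 6054 in fertilized 2-cell embryos, and 23840 to 37930 at the 1-cell stage. As for Shmt2 and Mthfd2, at the 2-cell stage these sums were higher with α-amanitin than without it in both origins. They were also higher in untreated parthenogenetic embryos than in the other 2 untreated groups. Other comparisons did not match. With α-amanitin the 1-cell sums were 27400 to 34420 in SCNT and 27560 to 33910 in fertilized embryos, so they fell between the stages. Shmt2 was not called lower there, and Mthfd2 was in SCNT embryos only. Among the 10 markers, Zp3 was lower with α-amanitin in fertilized 2-cell embryos, at 8.75 against 9.87. Of 5 markers of the 2-cell stage all 5 lay above the median in the untreated 2-cell groups and 3 elsewhere. Of 13 cumulus markers, 10 lay above it in SCNT, 4 in parthenogenetic and 8 in fertilized 1-cell embryos, with summed intensities of 616.4 to 660.9, 527.7 to 591.7 and 615.1 to 794.8. With α-amanitin 8 and 5 lay above it in SCNT and fertilized 1-cell embryos, and 9 and 8 in SCNT and fertilized 2-cell embryos. In untreated 2-cell embryos 5 lay above it in SCNT, 5 in parthenogenetic and 4 in fertilized embryos. There the summed intensity was 2675 to 3862, 1190 to 1374 and 2344 to 3636 in the 3 groups, with Amhr2 at a mean level of 11.59, 9.63 and 11.35. The cumulus markers Ptx3 and Amh lay under the median in all 10 groups. Of 7 sperm markers 0 to 3 lay above it, with summed intensities of 97.3 to 274.9 over all arrays, and of 4 blood markers 0 to 2, with 44.1 to 259.2.

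Around the 9 enzymes, 41 of 49 further genes of serine, folate, methionine and deoxynucleotide metabolism were tested. In SCNT 2-cell embryos 10 were higher with α-amanitin and 18 lower, with a median of -0.22, and in fertilized 2-cell embryos 16 were higher and 14 lower, with a median of 0.20, against medians over all genes of 0.28 and 0.27. Over all genes the shares called were 39.6% higher and 29.7% lower in SCNT and 38.6% and 25.8% in fertilized embryos, so these counts are read only as a description. Of 11 genes that move or cleave serine and glycine, 5 were lower and 2 higher in SCNT and 4 lower and 3 higher in fertilized embryos. Gldc and Gcsh, subunits of the glycine cleavage system, were at -6.87 (SE 0.21) and -4.55 (SE 0.15) in SCNT and -7.13 (SE 0.21) and -4.84 (SE 0.15) in fertilized embryos. Slc1a5, a transporter of neutral amino acids, was at -5.25 (SE 0.31) and -5.48 (SE 0.31), while Slc6a9, a glycine transporter, was 1.59 and 2.22 higher (SE 0.15 each). Gldc stood at 10.30 in SCNT and 10.72 in fertilized 2-cell embryos, against 3.40 and 3.45 at the 1-cell stage.

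Of 11 folate genes, 4 were lower (29.7% over all genes) and 2 higher (39.6%) with α-amanitin in SCNT 2-cell embryos. In fertilized ones 3 were lower (25.8%) and 2 higher (38.6%). The same shares stand beside the counts that follow in this paragraph, which are likewise a description only. Folr1, a folate receptor, was at -4.89 (SE 0.17) and -4.77 (SE 0.17), Slc19a1, the reduced folate carrier, at -1.83 (SE 0.23) and -1.06 (SE 0.23), and Slc25a32, the mitochondrial folate carrier, at -2.32 (SE 0.18) and -0.96 (SE 0.18). Of 10 genes of the methionine cycle, 5 were lower and 2 higher in SCNT and 3 lower and 6 higher in fertilized embryos. Bhmt, which methylates homocysteine with betaine, was at -5.82 (SE 0.30) and -4.87 (SE 0.30), and Mtrr, which restores methionine synthase, at -2.79 (SE 0.17) and -2.24 (SE 0.17). Of 9 genes of thymidylate and deoxynucleotide supply, 4 were lower and 4 higher in SCNT and 4 lower and 5 higher in fertilized embryos. Rrm1, the large subunit of ribonucleotide reductase, was at -3.27 (SE 0.17) and -2.44 (SE 0.17). All genes named in this paragraph are lower ones. Median differences in SCNT and fertilized embryos were -0.024 and 0.205 for the folate genes. They were -0.249 and 0.629 for the methionine cycle and 0.16 and 0.472 for deoxynucleotide supply.

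Between SCNT and fertilized 2-cell embryos 4 of the 41 were higher (14.3% over all genes) and 3 lower (16.3% over all genes). Ahcy, the hydrolase of S-adenosylhomocysteine, was 0.82 higher (SE 0.16, adjusted p = 7.83e-05), and Dut, which clears dUTP, lower at -1.53 (SE 0.15, adjusted p = 2.54e-10). In parthenogenetic 2-cell embryos 9 of the 41 were higher (26.4% over all genes) and 14 lower (21% over all genes) than in fertilized ones. Bhmt was at -3.05 (SE 0.30), Dtymk, the thymidylate kinase, at -3.16 (SE 0.18), Gldc at -1.78 (SE 0.21), and Folr1 at -1.48 (SE 0.17). The genes named here for parthenogenetic embryos are all lower ones. Of the 9 genes of thymidylate and deoxynucleotide supply, 5 were higher and 3 lower there.

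ATF4 is a transcription factor known to activate genes of serine synthesis, and MYC is another regulator of the route. Atf4 was lower with α-amanitin at the 2-cell stage, at -1.90 (SE 0.14) in both SCNT and fertilized embryos, and Myc at -2.39 (SE 0.43) and -2.88 (SE 0.43). At the 2-cell stage Atf4 differed by -0.18 between SCNT and fertilized embryos (adjusted p = 0.393) and by -0.11 between parthenogenetic and fertilized ones (adjusted p = 0.581). Myc was lower in parthenogenetic than in fertilized 2-cell embryos, at -2.93 (SE 0.43, adjusted p = 2.17e-07), and differed by -0.78 between SCNT and fertilized ones (adjusted p = 0.178).

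Over the 10 group means, Psat1 correlated with Phgdh at r = 0.79 and with Psph at r = 0.43, and Phgdh with Mthfd2 at r = -0.84 and with Shmt2 at r = -0.74. These are descriptions over 10 groups that share the normalization. The genes most like Psat1 over the groups were Ctsc (r = 0.995), Tecpr2 and Xpot, and 800 genes passed r = 0.9 with it. Psph had 21 such genes, led by Slc25a12 (r = 0.949), Nt5c3b and Chmp2a. Phgdh was most like Tmem64 (r = 0.979), Dgkz and Impact. Shmt2 was most like Prpf39 (r = 0.977), Akap7 and Dusp7, and Mthfd2 most like Rfpl4 (r = 0.989), Eef2k and Atp2a2. Mthfd1 was most like Chid1 (r = 0.986), Ccdc130 and Gas8, Mthfd1l most like Patl2 (r = 0.974), Hint2 and Txnip, and the chosen Shmt1 probe set most like Prss39 (r = 0.975), Mfsd8 and Slc22a17.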

How the data were processed

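RNA of 1-cell and 2-cell embryos was measured on 40 arrays, of which 1 has an empty column. The deposited values are linear intensities of 45101 probe sets, globally scaled by the authors: a mean trimmed by 2% equals 150 on all 39 arrays, as the deposited values show, and the software is not given in the sources used here. Per the labels' protocols, RNA was extracted with PicoPure columns and labelled with biotin. A constant of 6.9 (the 20th percentile) was added, log2 was taken, and arrays were quantile normalized, because array medians spanned 0.82 (4.92 to 5.74), over the limit of 0.5. Probe sets above the overall median on at least 4 arrays were kept (31153). Control probe sets (64), those of several genes (932) and those without a gene (9160) were left out of the gene tests. Of 34945 probe sets of 1 gene, 34741 were matched to RefSeq by gene ID. One limma model (version 3.58.1, R 4.3.3, moderated variance with a trend, 29 residual degrees of freedom) gave 17 comparisons and 4 interactions, with Benjamini-Hochberg adjustment over 14916 genes and each gene's probe set of highest mean log2. Figures were drawn with Python 3.11.15 and matplotlib 3.10.9.

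All 9 enzymes are named. Of each other list at most 4 genes a comparison could be named, those called with the largest change, plus Atf4 and Myc, and for each enzyme tested the 3 genes (no predicted-gene symbols) whose 10 group means correlate best with its own. The enzymes, the gene lists and the motifs were chosen with earlier results of these data known. Replicate numbers showed no sign of pairing the samples: over 45 pairs of groups the deviations of same-numbered arrays correlated at -0.115 to 0.113. Replicates correlated at 0.940 to 0.980, and 0 pairs of arrays were identical. Alternatives were the filter, scaling, constant, probe set, variance trend, array weights, arrays fitted, a replicate block and leaving out each array.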

Additional observations from a re-analysis of the deposited data

Results flagged for a closer look

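Among 81 sets of 4 arrays tested, 9 had an array far from the other 3 by Dixon's test, where chance alone marks about 1 in 20. On the log2 scale these arrays were the highest for Phgdh in fertilized 2-cell embryos with α-amanitin (replicate 3, 8.36), for Shmt2 in SCNT 2-cell embryos with α-amanitin (replicate 3, 10.61) and for Mthfd1l in fertilized 1-cell embryos with α-amanitin (replicate 2, 7.50). They were the lowest for Psat1 in SCNT 2-cell embryos (replicate 1, 11.93), Psph in fertilized 1-cell embryos with α-amanitin (replicate 4, 5.52), and Shmt1 in SCNT 1-cell embryos with α-amanitin (replicate 2, 6.625). The same holds for Mthfd2 in fertilized 1-cell embryos (replicate 1, 10.62), Mthfd1l in SCNT 2-cell embryos (replicate 1, 5.85) and Tyms in parthenogenetic 1-cell embryos (replicate 4, 3.57).

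In 14 cases an effect differed between origins by limma's interaction term. The effect of α-amanitin in SCNT embryos, minus that in fertilized embryos, was -0.76 for Shmt2 at the 1-cell stage (adjusted p = 0.0411), a call lost on leaving out any 1 of 10 arrays (adjusted p 0.0594 to 0.12), with the mean of probe sets, with no variance trend and with only the compared arrays. At the 2-cell stage it was -0.74 for Phgdh, -4.435 for Psph, 2.815 for Shmt1, -2.53 for Mthfd1 and -0.48 for Mthfd2. The stage change in SCNT embryos, minus that in fertilized embryos, was 0.73 for Phgdh, -1.69 for Psat1, 3.45 for Psph and -0.90 for Mthfd2. With median centring that of Phgdh was 0.39 (adjusted p = 0.211). The stage change in parthenogenetic embryos, minus that in fertilized embryos, was -0.93 for Phgdh, -3.36 for Psat1, -1.06 for Psph and 1.36 for Mthfd2. The call for Psph was lost without parthenogenetic 2-cell replicate 3 (-0.76, adjusted p = 0.0619) and with the values as deposited (-0.74, adjusted p = 0.0848).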

How the results depend on the processing

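The counts of called enzymes at the 2-cell stage and between untreated stages stayed within 1.5 times under all alternatives. Counts that moved further were small. With median centring, 1 enzyme was called for α-amanitin in fertilized 1-cell embryos, 2 for the stage change under α-amanitin in fertilized embryos, 1 between SCNT and parthenogenetic 1-cell embryos, and 3 between SCNT and fertilized 1-cell embryos under α-amanitin. For α-amanitin in fertilized 1-cell embryos, 0 were called with the mean of probe sets, with no variance trend and with only the compared arrays, and leaving out arrays gave 0 to 2. With the constant at the 5th percentile, 0 were called for α-amanitin in SCNT 1-cell embryos (0 to 1 on leaving out arrays) and 1 between SCNT and parthenogenetic 1-cell embryos, also 1 with no trend (1 to 2 on leaving out arrays). Between SCNT and fertilized 1-cell embryos, 2 were called with the probe set of highest deposited mean and 0 with only the compared arrays. The 1-cell amanitin interaction had 0 calls with the mean of probe sets, with no trend and with only the compared arrays, 2 with array weights, and 0 to 2 on leaving out arrays. Signs turned in 9 cases, counting only those where the reported value, the alternative or both were called. Shmt2 under α-amanitin in fertilized embryos changed by -0.091 between the stages with median centring. With the probe set of highest deposited mean, Shmt1 was at -5.053 (α-amanitin, SCNT 2-cell), 1.385 and -1.013 (parthenogenetic against fertilized, 1-cell and 2-cell) and -2.398 (stage interaction, parthenogenetic). With the mean of probe sets these were -0.886 for the first, -0.479 for the third and -0.849 for the fourth, and Phgdh was at -0.537 for the stage change of parthenogenetic embryos. The Shmt1 and Phgdh turns follow from probe sets that disagree, and for Shmt2 the cause was not tested. The replicate block moved 0 of these counts. Of 168 differences it ended 2 calls, Mthfd1l in the parthenogenetic stage change (adjusted p = 0.051) and Psph between parthenogenetic and fertilized 2-cell embryos (adjusted p = 0.0528), and made 1, Mthfd1 between SCNT and fertilized 2-cell embryos (0.826, adjusted p = 0.0473). Same-numbered arrays showed no shared deviation over all genes, which cannot show whether replicates were handled in sets. Each of the 2 calls that ended was kept in 10 of 20 alternative settings. Over all genes, α-amanitin in fertilized 1-cell embryos had 900 calls (559 to 2869 over alternatives), in SCNT 1-cell embryos 64 (6 to 159), SCNT against fertilized 1-cell embryos 829 (442 to 1410), SCNT against parthenogenetic 1-cell embryos 2117 (up to 3708), and the 1-cell amanitin interaction 359 (184 to 1277). The share of higher calls among all genes called moved with scaling, given here as quantile, deposited and median centred. It was 59.4%, 40.4% and 94.6% for α-amanitin in fertilized 1-cell embryos, 44.2%, 56.4% and 27.6% for the parthenogenetic stage change, 46.3%, 53.6% and 32.1% for the stage change under α-amanitin in SCNT and 53.1%, 64.4% and 18.5% in fertilized embryos, and 46.8%, 53.6% and 36.2% between SCNT and fertilized 2-cell embryos. At the 1-cell stage it was 53.3%, 45.1% and 69.5% between parthenogenetic and fertilized embryos, and 49.3%, 57.5% and 32.6% between SCNT and parthenogenetic ones. Between SCNT and fertilized embryos under α-amanitin it was 47.1%, 59.7% and 20.2% at the 1-cell and 43.1%, 49.2% and 32.7% at the 2-cell stage. For the interactions it was 30.6%, 50.5% and 4.54% (α-amanitin, 1-cell), 45.3%, 50.9% and 32.2% (stage, SCNT) and 55.8%, 63% and 39.5% (stage, parthenogenetic).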
